A study of Mus musculus with 16 samples.

Results

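Long noncoding RNAs that host small nucleolar RNAs (snoRNAs) were followed in mouse bone marrow through 8 genes, Snhg1, Snhg3, Snhg5, Snhg6, Snhg7, Snhg8, Snhg12 and Gas5. They were chosen by name, as array probes whose gene name equals one of the 8, after the values of these probes in knockout and control mice were known. This gave 11 probes of 55681 on the array, of which 9, covering 7 of the 8 genes, rose well above background on no fewer than 6 of a group's 8 arrays. Total RNA from whole marrow of 16 mice was measured on 1-colour Agilent arrays, 1 array per mouse. The 8 KO chimeras were C57BL/6J mice that had received 950 rad and then, by a single retro-orbital injection, whole marrow from donors of a strain lacking beta adrenergic receptors, Adrb1 among them, with a ratio of 1 to 4 (donor strain to C57BL/6J) given by the labels. The 8 controls were C57BL/6J mice labelled as having received the same 950 rad, with no donor named. The labels give 2 to 3 months of recovery for all reconstituted mice. Receptor loss, the genetic background of the donors, the graft itself and any host cells that survived cannot be told apart in this design, and neither can a difference in transcript level and a difference in how donor and C57BL/6J sequences bind a probe. Fewer cells of a type and less RNA per cell cannot be told apart in whole marrow either.

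A snoRNA host gene is transcribed and spliced like any other, and its snoRNAs are cut out of the introns, from where they go on to guide chemical modification of ribosomal and other RNAs. In the noncoding hosts the spliced exons carry no long open reading frame, and for several of them, Gas5 (growth arrest specific transcript) above all, the spliced RNA begins with a tract of pyrimidines, is taken up by ribosomes and is degraded by nonsense-mediated decay, so that it builds up when translation or growth slows. An array probe against a spliced host reads the exons or the retained parts of the transcript, not the snoRNAs. Marrow is rich in dividing progenitors with a high demand for ribosomes.

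The results turn on the 60-base probes below, which are shown because the Snhg12 difference rests on 1 of them and because Gas5 probes, and 2 probes between them that lie end to end, gave opposite differences between the groups. The letters are those in the scanner files, 5′ to 3′ on the strand of the transcript, with positions in mouse build mm9. Snhg12 probe 1 lies at chr4:131866864-131866922 on the plus strand, a stretch of 59 bases for a 60-base probe, and Snhg12 probe 2 is placed nowhere on mm9 by the files. The 3 Gas5 probes lie on the plus strand at chr1:162966369-162966428, chr1:162967350-162967409 and chr1:162968608-162968667. Adjacent probes a and b carry the name of a lincRNA region and lie end to end on the same strand between Gas5 probes 2 and 3, at chr1:162967656-162967715 and chr1:162967716-162967775. The Snhg5 probe lies at chr9:88417150-88417209 on the minus strand and the Snhg1 probe at chr19:8798913-8798972 on the plus strand. Capitals in adjacent probe a mark GTAAGT, the letters of a strong splice donor at the start of an intron, which were searched on the probe strand alone and occur in 0.959% of the 55681 probes.
Snhg12 probe 1: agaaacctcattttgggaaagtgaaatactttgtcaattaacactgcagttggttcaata
Snhg12 probe 2: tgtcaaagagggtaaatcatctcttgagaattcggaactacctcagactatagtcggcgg
Gas5 probe 1: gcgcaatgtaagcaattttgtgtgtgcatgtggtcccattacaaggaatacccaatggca
Gas5 probe 2: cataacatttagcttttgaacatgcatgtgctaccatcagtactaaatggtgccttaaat
Adjacent probe a: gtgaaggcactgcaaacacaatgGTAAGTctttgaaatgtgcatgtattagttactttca
Adjacent probe b: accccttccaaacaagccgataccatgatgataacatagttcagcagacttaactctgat
Gas5 probe 3: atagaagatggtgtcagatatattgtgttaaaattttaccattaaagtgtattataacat
Snhg5: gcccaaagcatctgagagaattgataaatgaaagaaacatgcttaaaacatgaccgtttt
Snhg1: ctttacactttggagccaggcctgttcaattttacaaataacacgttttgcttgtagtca

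Signals are given as log2 of the processed signal over the 75th percentile of the array, so that 0 is that percentile, and differences as KO chimera minus control on this scale. That percentile was 127 to 545 in KO chimeras, against 231 to 558 in controls. KO chimera arrays had 27792 to 37121 probes well above background, and control arrays 29326 to 38762. The number of mice, 8 in each group, limits the precision of every value. Each sample is a mouse of its own per the labels. The targeted gene Adrb1 differed by -0.00041 between the group means on one probe and by 0.95 on a dimmer one. Whether either probe falls within the deleted part of Adrb1 could not be read from the files, and neither serves as a check of genotype. One KO chimera, number 7, stood apart from the other 7. Among the 100 probes outside the 8 genes with the largest differences it was the KO chimera nearest to the controls for 69. Among the 100 largest in each direction it was nearest for 66 of the lower and 49 of the higher probes. Among the 1000 largest in either direction it was nearest for 367. Results that rest on KO chimera 7 are given with and without it. Neutrophil genes were among the bright signals, with S100a8 at 8.42 to 9.26 in KO chimeras and 8.69 to 9.20 in controls.

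Snhg12 had the largest difference among the 7 measured genes. On its measured probe the 8 KO chimeras had a lowest value of -4.38, a median of -3.26 and a highest value of 0.35, against a lowest value of 3.36, a median of 3.64 and a highest value of 3.74 in the 8 controls. The groups were far apart, controls lay within a narrow band, and the KO chimeras were spread widely below them. The mean was -2.86 ± 1.53 (SD, n = 8) in KO chimeras and 3.59 ± 0.15 (SD, n = 8) in controls. The difference was -6.45 ± 0.50 (SE), which makes the mean signal of KO chimeras 87.5-fold lower. The probe was well above background on 6 of 8 KO chimera arrays and on all 8 control arrays, and KO chimeras 1 and 2, on which it was not, have only an upper bound. With these 2 arrays set to the lowest signal well above background on them, where that was the higher value, the difference was -6.40. After another background correction (normexp) it was -5.00.

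The high value among the KO chimeras belonged to mouse 7. Its Snhg12 signal was 693 in scanner units, against 9.73 to 85.2 in the other 7 KO chimeras and 2936 to 6693 in the controls. It lay between the groups, 2.45 above the next KO chimera and 9.48-fold below the control mean. Without mouse 7 the KO chimeras averaged -3.32 ± 0.87 (SD, n = 7) and the difference was -6.91. Mouse 7 was also the KO chimera nearest to the control mean for Gas5 probe 2 and for Snhg5, but not for the other 6 measured probes. The second Snhg12 probe, made from an expressed sequence tag, was not well above background on any of the 16 arrays, so the Snhg12 difference rests on 1 probe.

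**Figure D1:**
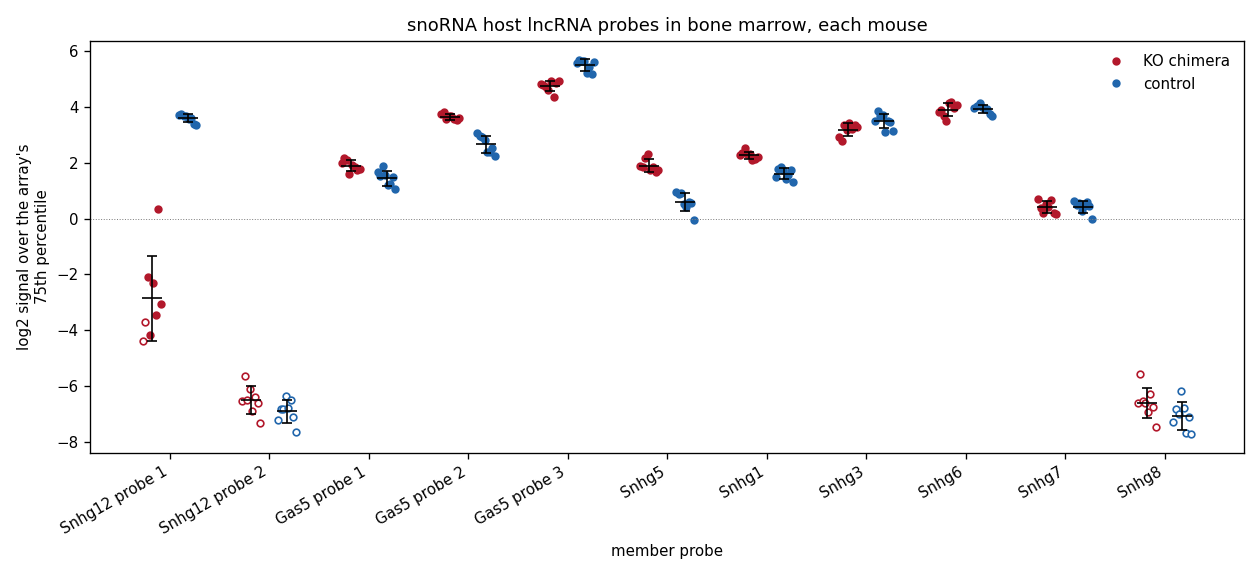
Log2 signal over the array's 75th percentile (vertical axis) for each of the 11 probes (horizontal axis) in the 8 KO chimeras (red, left of each pair) and the 8 controls (blue, right); filled points were well above background, open points were not, and black bars give the mean and SD. On Snhg12 probe 1 the KO chimeras lie below all controls, with KO chimera 7 at 0.35, the 3 Gas5 probes differ in direction, and Snhg6 and Snhg7 overlap.

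Gas5 gave differences of opposite sign along its length. Probe 1, the most 5′ of the 3, ran from 1.61 through a median of 1.89 to 2.19 in KO chimeras, against 1.05 through 1.50 to 1.87 in controls. Its groups overlapped, with KO chimeras the higher on average, by 0.44 ± 0.12 (SE).
Probe 2, 981 bases further on, ran from 3.54 through a median of 3.64 to 3.83 in KO chimeras, against 2.25 through 2.67 to 3.07 in controls. Every KO chimera lay above every control, with a difference of 0.99 ± 0.12 (SE). The KO chimeras were also closer to one another, with an SD of 0.10 against 0.31 in controls. Probe 3, a further 1258 bases on along the chromosome, ran from 4.36 through a median of 4.81 to 4.94 in KO chimeras, against 5.17 through 5.61 to 5.68 in controls. Here every KO chimera lay below every control, with a difference of -0.75 ± 0.10 (SE). The array annotation also gives each Gas5 probe a second start position. By that position probes 1 and 2 were again 981 bases apart, but probes 2 and 3 only 440. The part of this shorter spacing in the differences was not tested. Taken within each array, the log2 signal of probe 2 minus that of probe 3 was -1.33 to -0.81 in KO chimeras, against -3.38 to -2.51 in controls, so the balance between the 2 probes differed by 1.74 on the log2 scale. A rule that reads a gene from its brightest probe would report Gas5 as lower in KO chimeras, and either of the other 2 probes would report it as higher.

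The Gas5 locus is also covered by 15 lincRNA probes of other names, which were looked at after the member values were known and are given as a description. On the Gas5 strand, adjacent probes a and b, printed above, lie between probes 2 and 3. Adjacent probe a ran from -0.90 through a median of -0.66 to -0.44 in KO chimeras, against 0.25 through 0.35 to 0.43 in controls. All KO chimeras lay below all controls, by 0.99 on average (-0.99 ± 0.07, SE from the spread within groups). Adjacent probe b, which begins at the base after probe a ends, ran from 0.60 through 0.75 to 1.28 in KO chimeras, against 0.20 through 0.29 to 1.01 in controls. The groups overlapped and the mean was higher in KO chimeras by 0.45 ± 0.13. Along the plus strand the differences therefore read 0.44, 0.99, -0.99, 0.45 and -0.75 from 5′ to 3′, with 3 changes of sign.
The 3 same-strand probes upstream of probe 1 differed by 0.06, 0.36 and -0.03, with overlapping groups. The 10 probes on the opposite strand had overlapping groups as well. Of these, 9 were lower in KO chimeras, with a median difference of -0.71 and a range from -1.08 to 0.12, and 5 were well above background on all 16 arrays.

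**Figure D2:**
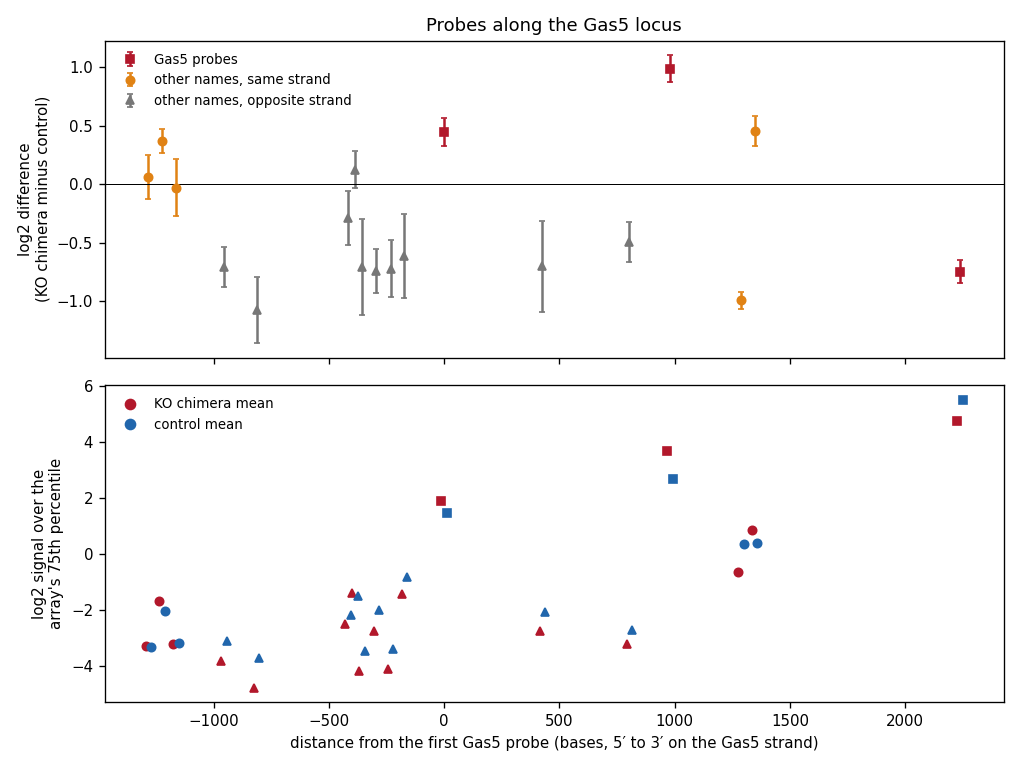
Upper panel: log2 difference, KO chimera minus control, with its SE (vertical axis) against distance in bases from the first Gas5 probe (horizontal axis) for the 3 Gas5 probes (squares), 5 probes of other names on the same strand (circles) and 10 on the opposite strand (triangles). Lower panel: mean log2 signal of KO chimeras (red) and controls (blue) for the same probes. Downstream of the first Gas5 probe the same-strand differences read 0.99, -0.99, 0.45 and -0.75, and 9 of 10 opposite-strand probes lie below 0.

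Snhg5 and Snhg1 were higher in KO chimeras. Snhg5 ran from 1.67 through a median of 1.85 to 2.31 in KO chimeras, against -0.04 through 0.58 to 0.96 in controls. No value overlapped, and the difference of 1.30 ± 0.14 (SE) makes the mean signal 2.46-fold higher. A probe 319 bases away on the same strand, under the transcript name TC1654900, had values of 0.51 to 1.63 in KO chimeras, against -0.27 to 0.47 in controls, again without overlap, with a difference of 0.70 ± 0.15 (SE). Both probes of the Snhg5 locus thus differed in the same direction. Snhg1 ran from 2.11 through a median of 2.28 to 2.51 in KO chimeras, against 1.31 through 1.64 to 1.84 in controls. Its groups did not overlap either, and the difference was 0.67 ± 0.09 (SE), 1.59-fold.

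Snhg3, Snhg6 and Snhg7 had overlapping groups. Snhg3 ran from 2.77 through a median of 3.23 to 3.43 in KO chimeras, against 3.12 through 3.50 to 3.85 in controls, with a difference of -0.30 ± 0.12 (SE). A lincRNA probe 214 bases away on the same strand differed by 0.30 ± 0.14 (SE), with overlapping groups. The direction at the Snhg3 locus thus depends on the probe. Snhg6 had 3.49 to 4.18 in KO chimeras, against 3.67 to 4.12 in controls, a difference of -0.02 ± 0.10. Snhg7 had 0.15 to 0.72 in KO chimeras, against -0.02 to 0.63 in controls, a difference of -0.01 ± 0.11. For Snhg6 and Snhg7 the difference was smaller than its SE. The one Snhg8 probe, at chr3:123210642-123210701 on the minus strand, was not well above background on any array of either group, and no difference is given for it.

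Of the 9 measured probes, 6 passed an adjusted p of 0.05 in the fit across all probes (limma), 4 of them higher and 2 lower in KO chimeras. Over all 32709 probes tested the share was 23.5%, with 11.4% higher and 12.2% lower. Without overlap between groups were 5 of the 9, 3 higher and 2 lower, where the share over all probes was 6.33%, with 3.06% higher and 3.28% lower. In the full fit 7700 of all probes passed. Without control 5 or without control 8, Snhg3 passed as well, which made 7 of 9, beside 7318 and 7581 of all probes. Within either scan day 5 of 9 passed, beside 2449 of all probes on day 1 and 3460 on day 2. Since the 8 genes were chosen on this contrast, nothing is read from these counts. The median difference of the 9 probes was -0.01, beside -0.01 over all probes.

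The scan day, which the choice of genes did not use, was tested on the same probes. Each of 2 scan days held 4 KO chimeras and 4 controls. Day 2 minus day 1 ran from -0.14 for Snhg5 to 0.52 for Snhg12, and 0 of the 9 probes passed (limma, lowest adjusted p = 0.234 for Gas5 probe 3), while 1.76% of all probes did, 0.685% higher and 1.08% lower on day 2. At an unadjusted p under 0.05, 1 of the 9 passed. Within day 1 and within day 2 the difference between KO chimeras and controls was -6.94 and -5.96 for Snhg12, 1.44 and 1.16 for Snhg5, 0.63 and 0.70 for Snhg1, 0.99 and 0.98 for Gas5 probe 2 and -0.80 and -0.70 for Gas5 probe 3.

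With the group means subtracted, the 9 probes varied together to different degrees over the 16 arrays. The 36 pairs had a median Pearson r of 0.28, and 8 pairs exceeded 0.5. Gas5 probes 1 and 2 had an r of 0.78, Gas5 probe 1 and Snhg1 0.69, and Gas5 probe 2 and Snhg5 0.68. The probes share their arrays, and against the log2 of the 75th percentile, which every value is divided by, the within-group r ran from -0.59 for Snhg1 to 0.47 for Snhg12.

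The gene names most like Snhg12 over the 16 arrays were found among 22307 by Pearson r on the brightest probe. They were an unnamed probe (r = 0.99), Elovl7, an elongase of long-chain fatty acids (0.99), Ms4a4b, a membrane protein of T cells (0.99), a further unnamed probe (0.98) and Wdr92, a factor for dynein assembly (0.98). All 5 were lower in KO chimeras, with a difference of -3.74 for Elovl7 and -3.57 for Ms4a4b, so this likeness is that of the 2 groups. With group means subtracted, the closest names were LOC102636964 (r = 0.95), Hbb-y, an embryonic globin (0.92), an unnamed probe (0.88), 4930448F12Rik (0.86) and another unnamed probe (0.85). Without KO chimera 7 these 5 values were 0.82, 0.70, 0.54, 0.64 and 0.52 over 15 arrays.
For Gas5, read on probe 3, the closest names over all arrays were 2 unnamed probes (r = 0.96 and 0.95), NAP111329-1 (0.95), Txndc9, a thioredoxin-domain protein (0.95), and Gm5445 (0.94). With group means subtracted they were 2 unnamed probes (0.92 and 0.90), Olfr1122, an olfactory receptor (0.89), a lincRNA region of chromosome 13 (0.87) and LOC102636216 (0.85). Leaving out KO chimera 7 moved these 10 values for Gas5 by at most 0.0080.

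Genes within 200 kb of the 8 hosts were read on their brightest measured probe in the fit across all genes, in which 22.3% of 23077 genes passed, 10.2% higher and 12% lower. Of 94 such names tested, 16 were higher and 8 lower, and their median difference was 0.04 beside -0.02 over all genes. The names include probes of the Gas5 and Snhg5 loci themselves and overlapping lincRNA regions, so not all are separate genes. Snhg12 and Snhg3 lie 41.1 kb apart on chromosome 4. Of the 17 genes tested near either, 0 rose and 2 fell at an adjusted p under 0.05. The gene nearest to the Snhg12 probe, Trnau1ap (a factor for selenocysteine incorporation, named for its place), had values of 2.69 to 2.86 in KO chimeras and 2.92 to 3.56 in controls, and fell by 0.45 (difference -0.45 ± 0.09, adjusted p = 0.00108), a call that ended within either scan day. Its probe lies 848 bases from the Snhg12 probe on the opposite strand, and the mean of all measured Trnau1ap probes differed by 0.036, so the direction depends on the probe. No other gene near Snhg12 differed by as much as Snhg12 itself, the range being -0.54 to 0.30.

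Around Gas5, 6 of 14 names tested rose and 2 fell. Of the 6, 2 are lincRNA probes of the Gas5 locus described above, adjacent probe b among them, and 2 are overlapping names of 1 region, so the count is not one of separate genes. The 3 neighbours with the smallest p lie around Gas5. A lincRNA region on the reverse strand at chr1:162933979-162944379, 26.9 kb away, rose by 0.92 ± 0.07 on its brightest probe (adjusted p = 5.33e-08). The 4 other probes of this region that were well above background on at least 7 arrays of each group differed by 0.64, 0.56, 0.16 and 0.15, and 2 dim ones by 0.22 and -0.38, so the size depends on the probe. LOC102642485, 198.7 kb away, was well above background on 6 KO chimera arrays and on 0 control arrays. It entered the fit only through the KO chimeras, so its call carries no information of its own. Its measured mean was -3.96 in KO chimeras and -6.68 in controls, and the difference ran from 0.36 to 3.01 over the alternatives. Zbtb37, a zinc finger gene 16.9 kb away, rose by 0.79 ± 0.13 on its brightest probe (adjusted p = 3.36e-04), while 2 dimmer probes of it differed by -0.06 and -0.23.
Around Snhg5, 7 of 19 names rose and 0 fell, and 1 of the 7 is TC1654900, the probe of the Snhg5 locus described above. Around Snhg1, 2 of 27 rose and 1 fell. Around Snhg6, 0 of 7 passed (limma, also 0 at an unadjusted p under 0.05), and around Snhg7 1 of 7 fell and 0 rose. The only Snhg8 probe was not well above background, but all 3 genes tested near it passed, 1 higher and 2 lower. Prss12, a serine protease gene 1.2 kb from the Snhg8 probe and named for its place, had values of -2.87 to -1.05 in KO chimeras and -0.85 to -0.25 in controls, a difference of -1.21 ± 0.22 (adjusted p = 6.18e-04).

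**Figure D3:**
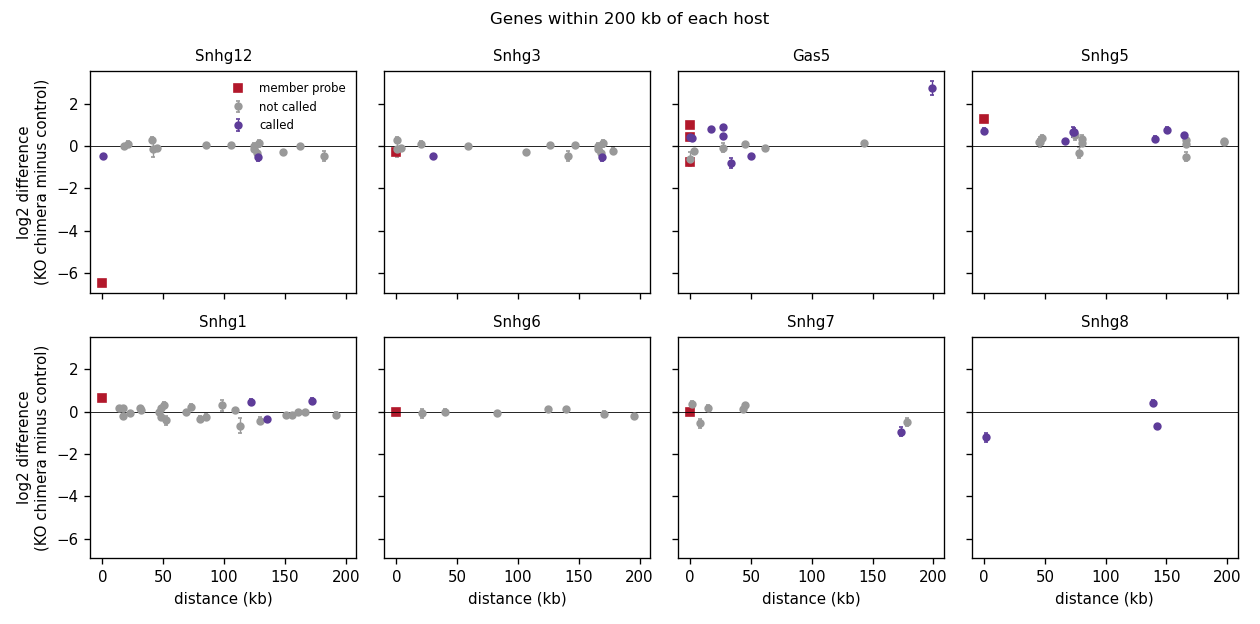
Log2 difference, KO chimera minus control, with its SE (vertical axis) for genes within 200 kb of each host against their distance in kb (horizontal axis); purple genes passed an adjusted p of 0.05, grey ones did not, and red squares give the host's own measured probes. Near Snhg12 the neighbours lie between -0.54 and 0.30 while its own probe lies at -6.45.

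The start sites of the hosts were read from RefSeq promoter sequences (GRCm38.p6), which hold 8 windows for 7 of the 8 genes, Gas5 with 2. They are shown because a pyrimidine tract at the start of the RNA is a feature of transcripts whose translation depends on growth signals. Whether the hosts belong to that class was not tested. An unbroken run of at least 5 C or T letters that includes the first base, on the gene's strand, was present in 4 of the 8 windows and in 10.14% of 32851 promoters in the table. The run was looked for after the member values were known. In all 4 windows it begins before the first base, so its leading letters are not part of the RNA by these starts. The first base was a T at Snhg12 and a C at the Gas5 downstream start, Snhg7 and Snhg8. Each window below holds 20 bases before the start and 20 from it on, with the run in capitals, at chr4:132308658-132308697 (plus strand) for Snhg12, chr1:161035146-161035185 (plus strand) for the downstream start of Gas5, chr2:26640225-26640264 (minus strand) for Snhg7 and chr3:123508317-123508356 (minus strand) for Snhg8.
Snhg12 start: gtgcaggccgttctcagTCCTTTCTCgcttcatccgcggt
Gas5 start: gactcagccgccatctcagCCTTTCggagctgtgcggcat
Snhg7 start: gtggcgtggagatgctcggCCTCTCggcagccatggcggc
Snhg8 start: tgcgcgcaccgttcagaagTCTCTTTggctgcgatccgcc
These 4 genes had no common direction in the arrays. Snhg12 was lower in KO chimeras, Gas5 differed in sign between probes and Snhg7 differed by less than its SE. The only Snhg8 probe was not well above background on any array. At Snhg1 the run held 4 letters, and at the starts given for Snhg5, Snhg3 and the upstream start of Gas5 the first base was a G.

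Genes that host snoRNAs elsewhere, or that build their particles, decay host RNA or tune its translation, were read from 7 lists. Of their 68 tested genes (Nop56 is in 2 lists), 7 rose and 3 fell, beside 10.2% and 12% over all genes. Within a single scan day 2 of these 10 calls held, Rps6kb1 and Smg1 on day 1 and Rps6kb1 and Ipo7 on day 2, so that the calls named below for Snhg17, Taf1d, Eif4a1, Znhit3, Shq1 and Upf1 held within neither.
Among 5 further noncoding hosts tested of 12 listed, 1 rose and 0 fell, and their median difference was 0.02. It was Snhg17, named 9430008C03Rik on the array, with values of -0.30 to 0.21 in KO chimeras and -0.46 to -0.05 in controls, which overlap, and a difference of 0.27 ± 0.09 (adjusted p = 0.0299). Among 24 protein-coding hosts, 3 rose and 0 fell, with a median of 0.03. Ipo7, a nuclear import receptor, had values of -1.33 to -0.87 in KO chimeras and -1.94 to -1.55 in controls, without overlap, and rose by 0.62 ± 0.08 (adjusted p = 2.56e-05). Taf1d, a subunit of the RNA polymerase I initiation factor, rose by 0.30 ± 0.07 (adjusted p = 0.00391), with values of 1.78 to 2.01 in KO chimeras and 1.36 to 1.73 in controls. Eif4a1, the helicase that opens mRNA for ribosome loading, rose by 0.30 ± 0.10 (adjusted p = 0.0349). Leaving out single mice ended the Snhg17 call for 6 of the 16 mice (KO chimeras 1, 2, 3 and 5, controls 5 and 8) and the Eif4a1 call for 8 (KO chimeras 1, 2, 3 and 5, controls 1, 3, 4 and 8), with adjusted p up to 0.0695.

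Of 8 core proteins of snoRNA particles 0 passed (limma, also 0 at an unadjusted p under 0.05), and their differences lay between -0.16 and 0.15. The smallest p-values among them were those of Nop56, a scaffold of box C/D particles, with 0.12 ± 0.07 (adjusted p = 0.238), and of Nhp2, which binds box H/ACA snoRNAs, with -0.16 ± 0.09 (adjusted p = 0.257). Of 10 assembly factors 1 rose and 1 fell. Znhit3, a zinc finger protein of the box C/D assembly complex, rose by 0.38 ± 0.11 (adjusted p = 0.0237). Shq1, a chaperone of the box H/ACA pseudouridine synthase, fell by 0.31 (difference -0.31 ± 0.09, adjusted p = 0.0239), although a dimmer probe of it differed by 0.28. Both snoRNA genes on the array, Snora74a at -0.30 ± 0.24 (adjusted p = 0.413) and Snora47 at -0.11 ± 0.19 (adjusted p = 0.735), did not pass, nor did either at an unadjusted p under 0.05.

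Of 10 factors of nonsense-mediated decay, the pathway that degrades several of the spliced noncoding hosts, 2 rose and 1 fell. Smg1, the kinase that phosphorylates Upf1, had values of 1.06 to 1.36 in KO chimeras and 1.40 to 2.02 in controls, without overlap, and fell by 0.61 (difference -0.61 ± 0.09, adjusted p = 1.25e-04). Upf1, the helicase at the centre of the pathway, rose by 0.28 ± 0.09 (adjusted p = 0.0382). The Upf1 call ended without any 1 of 8 mice (KO chimeras 3 and 5, controls 1, 2, 3, 5, 6 and 8), with adjusted p up to 0.0700. Of 10 factors of pyrimidine-tract translation and mTOR signalling, 1 fell and 0 rose. It was Rps6kb1, the S6 kinase, with 3.27 to 3.56 in KO chimeras and 3.67 to 4.23 in controls, a difference of -0.71 ± 0.08 (adjusted p = 7.6e-06). On the mean of its measured probes Rps6kb1 did not pass. Dimmer Rps6kb1 probes above background on all arrays differed by -0.17 and 0.38, so the direction depends on the probe.

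**Figure D4:**
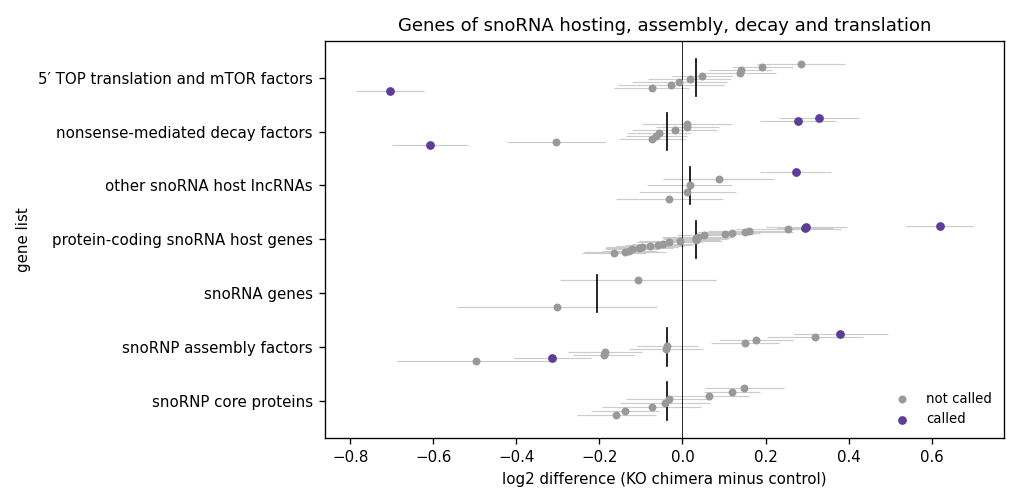
Log2 difference, KO chimera minus control, with its SE (horizontal axis) for the tested genes of 7 lists (vertical axis); purple genes passed an adjusted p of 0.05, grey ones did not, and black bars are list medians. Of 68 genes, 7 rose and 3 fell, and Ipo7, Rps6kb1 and Smg1 lie farthest from 0 among those called.

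Markers of the cell types in marrow were read beside these values. Of 5 T cell genes 2 fell, Thy1 with a difference of -1.20 ± 0.16 and Cd8a with -1.42 ± 0.19, and the summed signal of the list, in units of the 75th percentile, was 19.5 to 24.6 in 7 KO chimeras and 25.7 to 30.9 in 7 controls. KO chimera 1 had no Cd4 value and control 8 no Cd3e value, since those spots were flagged as outliers, and the other 4 genes summed to 6.85 in KO chimera 1 and 71.2 in control 8. Cd4, the brightest gene of the list, did not pass (-0.19 ± 0.33). Its highest control value was 6.02, against a control median of 3.59. The sum of KO chimera 1 lacks Cd4, so these 2 sums cannot be compared. A dimmer Cd8a probe differed by -0.44. Of 4 megakaryocyte genes 2 fell, Ppbp with -1.81 ± 0.26 and Pf4 with -0.85 ± 0.19, and the sums were 15.8 to 41.4 in KO chimeras and 28.6 to 58.5 in controls. One gene rose in each of 3 further lists. Vpreb1 rose among 5 B lineage genes (1.36 ± 0.37), whose sums were 48.9 to 117 in KO chimeras and 45.4 to 121 in controls. Ncr1 rose among 4 NK cell genes (1.00 ± 0.18), with sums of 3.11 to 6.22 in KO chimeras and 3.38 to 5.70 in controls. In the same list Klrb1c differed by -0.04 on its brightest probe, while a second Klrb1c probe was well above background on 0 KO chimera arrays and on all 8 control arrays, with a measured difference of -2.47. Cxcl12 rose among 4 stroma genes (0.62 ± 0.21), with sums of 4.997 to 10.05 in KO chimeras and 2.61 to 7.10 in controls. Top2a, 1 of 4 proliferation genes, fell with -0.30 ± 0.09, and none of 6 neutrophil, 5 erythroid and 4 monocyte genes passed on the brightest probe, the lowest adjusted p (limma) among them being 0.197 and 0 passing at an unadjusted p under 0.05. Dimmer probes of these lists above background on all arrays differed by 1.08 for Mpo, 0.85 and 0.27 for Csf1r and 0.47 for Camp. Those of Cd68, Ly6c1 and Emr1 differed by 0.33, 0.26 and -0.22. Of 4 skeletal muscle genes, 2 were measured, at sums of 0.28 or less in both groups, and neither passed. The part of these cell types in the differences of the host genes was not tested.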

How the data were processed

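Bone marrow RNA of 16 mice went on Agilent arrays of 1 colour (Cy3), per the labels' protocols. The deposited scanner files hold spot intensity after subtraction of background within the array. They came from Agilent Feature Extraction, version 10.7 in the submitters' processing notes. The file headers give 10.1.1.1 as the version of the grid placement step. The authors' deposited table holds log2 values, quantile-normalized as far as the sample descriptions say, which correlated with the scanner signals at r of 0.991 or more. How they were centred is not known. Each processed signal was set against the 75th percentile of its array on the log2 scale, without control spots and outlier flags, and no spot was saturated. The filter asked for a signal well above background on 6 of a group's 8 arrays and left 32709 probes with enough values to test. A gene was read from its brightest kept probe. Groups and replicate numbers came from sample titles and were compared in R 4.3.3 by limma 3.58.1 (lmFit, eBayes, two-sided, Benjamini-Hochberg adjustment over all features, threshold 0.05), tested on simulated data. Adjusted p-values are from limma throughout. The 8 member genes and all lists were chosen with earlier results of these data known. Member differences between groups are therefore descriptions, with no p-value. Named genes were all members, up to 3 called genes of smallest p per list (2 where none passed), and the 5 names most like Snhg12 and Gas5. Alternatives were other normalizations, the authors' values, other filters, blocks for slide, day of scanning or replicate number, single scan days, array brightness as a covariate, outlier spots kept, the mean of a gene's probes, and leaving out each mouse. There were 6 slides, and both groups shared 5 of them. Probe names are the array's, matched to RefSeq symbols, and positions are mm9, per the file headers. Of the 12 further noncoding hosts listed, 9 were found on the array and 5 measured. Some genes that these rules name are not reported here.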

Additional observations from a re-analysis of the deposited data

Results flagged for a closer look

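No host gene had a mouse far from the others of its group by Dixon's test. For Snhg12, the gap of KO chimera 7 to the next mouse was 0.520 of the range of the group, under the critical value. Among 52 groups tested over the hosts and the named genes, 6 had such a mouse, and chance flags about 1 group in 20. LOC102642485, near Gas5, had a lowest value of -5.96 in KO chimera 7, against -4.17 to -2.99 in the other KO chimeras. The Rps6kb1 signal was 3.56 in KO chimera 2, against 3.27 to 3.39 in the other KO chimeras, and 3.67 in control 8, against 3.98 to 4.23 in the other controls. Upf1 had 1.92 in KO chimera 4, against 1.26 to 1.53 in the other KO chimeras. Nhp2 had 5.10 in control 5, against 5.47 to 5.69 in the other controls. Snora47 had -2.68 in control 3, against -3.61 to -3.21 in the other controls.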

How the results depend on the processing

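Of 252 recomputed differences of the 9 measured probes, 251 stayed within 1 SD of the value reported. The exception was Snhg12 at -5.00 after normexp background correction with quantile normalization, beside -6.45. Setting its 2 dim arrays to the lowest signal well above background, an alternative chosen after seeing the data, gave -6.40. Leaving out single mice gave -6.91 to -6.23 for Snhg12, 1.21 to 1.35 for Snhg5 and -0.80 to -0.69 for Gas5 probe 3. The count of called member probes, from which nothing is read, was 5 to 6 of 9 under other processing, beside 2449 to 8296 of all probes. It was 5 of 8 with probes above background on all arrays, which leaves Snhg12 out. Gas5 probe 1 was not called within either scan day. Snhg3, at -0.30, was called without control 5 or without control 8, which made 7. Trnau1ap, at -0.45, came to 0.036 on the mean of its probes, which ended the Rps6kb1, Shq1 and Zbtb37 calls as well. For the lists, 10 genes were called in all, 7 to 12 without single mice and 2 within each scan day. Over all probes 7700 were called, 2449 and 3460 within scan days 1 and 2 and 6609 to 7951 without single mice. Over all genes 5140 were called, 1605 and 2320 within the days and 4395 to 5331 without single mice. The within-day fits hold 8 mice in place of 16. Scan day called 0 member probes under all 24 alternatives. Replicate numbers did not pair the mice, as same-numbered mice correlated at -0.19 to 0.19. The fit with number as a block called 6 member probes, 7 list genes, 4732 genes and 7017 probes, and ended the Znhit3, Shq1, Snhg17 and Eif4a1 calls.

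Signal over background limits Snhg8 and Snhg12 probe 2, which were not measured, and the size of the Snhg12 difference. Snhg12, Snhg5, Snhg1, Snhg3, Snhg6 and Snhg7 rest on 1 measured probe each. The arrays do not separate spliced from unspliced host RNA.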
